A study of Mus musculus with 6 samples.

Results

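Antigen presentation was followed in the mouse retina through 10 genes, B2m, H2-K1, H2-D1, Psmb8, Psmb9, Tap1, H2-Aa, H2-Ab1, H2-Eb1 and Cd74. Every probe set on the array whose annotation names 1 of these genes and no other was taken, which gave 31 of 45037 probe sets other than controls. By role, 22 of them belong to the class I side (6 genes) and 9 to the class II side (4 genes). A further 3 probe sets name a member beside other genes and were not assigned to it.

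The arrays came from mice of strain BALB/c AJ at post-natal day 40. One group is homozygous for the knockout of Nxnl2 (ko/ko, 3 arrays) and the other is wild type (wt/wt, 3 arrays). All animals were kept under a 12 h light and dark cycle, and retinas were dissected away from the pigment epithelium. Nxnl2 encodes a thioredoxin-like protein known as rod-derived cone viability factor 2, and the comparison asks what differs in retina that lacks it. The labels do not say whether the arrays of a group came from separate animals, so a p-value here covers the spread among the deposited arrays alone, and part of that may be technical. A retina is a mixed tissue, and fewer cells of a type cannot be told apart from less RNA per cell.

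Class I molecules are carried by nearly all cells and show peptides from proteins made inside the cell. The heavy chains H2-K1 and H2-D1 pair with the light chain B2m. Psmb8 and Psmb9 are catalytic subunits of the immunoproteasome, which cuts the peptides, and Tap1 is one chain of the transporter that carries them into the endoplasmic reticulum. Class II molecules are built from H2-Aa with H2-Ab1, or from an E alpha chain with H2-Eb1, and show peptides from endocytosed material. Cd74, the invariant chain, escorts them through the cell. Class II is known mainly from dendritic cells, B cells and macrophages, and both classes can be induced by interferon gamma. The healthy neural retina is known for low class I and class II levels, with microglia as its resident immune cells.

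Tap1 and Psmb9 start back to back on opposite strands. The sequences just before the transcription starts of members are shown first as background, and their part in the array values was not tested. They are RefSeq sequences of assembly GRCm38.p6, which is C57BL/6J and not BALB/c, so H2 alleles can differ from those on the arrays. Of the 10 genes, 8 had an entry, and H2-Ab1 and Cd74 are named only. Capitals mark matches, on either strand, to letters known from immune promoters: GGGNNTTCC, bound by NF-kB factors, TTTCACTTC, from the interferon element of class I genes, GAAANNGAA, bound by interferon regulatory factors, TGACGTCA, a cyclic AMP element, and CCAAT. TTCNNNGAA, bound by STAT factors, was searched as well. No matches overlapped in these windows. B2m is chr2:122147437-122147686 on the plus strand, H2-K1 is chr17:34000348-34000597 on the minus strand, H2-D1 is chr17:35262844-35263093 on the plus strand and H2-Aa is chr17:34287824-34288073 on the minus strand. Each of these is the 250 bases before the start given in the promoter table, read toward the gene. For H2-K1 that start lies inside the gene's RefSeq span, which reaches 34000619, so its distances count from an inner start. The stretch of 225 bases between the starts of Psmb9 (minus strand) and Tap1 (plus strand) is chr17:34187331-34187555, printed on the plus strand.
B2m: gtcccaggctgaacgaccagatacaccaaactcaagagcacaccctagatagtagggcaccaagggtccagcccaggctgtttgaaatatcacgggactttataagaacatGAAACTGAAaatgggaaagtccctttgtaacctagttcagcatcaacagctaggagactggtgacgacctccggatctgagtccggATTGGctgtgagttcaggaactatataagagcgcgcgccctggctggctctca
H2-K1: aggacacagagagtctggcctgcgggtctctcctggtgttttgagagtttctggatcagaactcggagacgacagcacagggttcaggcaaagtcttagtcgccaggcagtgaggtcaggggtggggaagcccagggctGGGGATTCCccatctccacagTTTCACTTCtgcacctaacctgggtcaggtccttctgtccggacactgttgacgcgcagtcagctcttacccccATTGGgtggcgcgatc
H2-D1: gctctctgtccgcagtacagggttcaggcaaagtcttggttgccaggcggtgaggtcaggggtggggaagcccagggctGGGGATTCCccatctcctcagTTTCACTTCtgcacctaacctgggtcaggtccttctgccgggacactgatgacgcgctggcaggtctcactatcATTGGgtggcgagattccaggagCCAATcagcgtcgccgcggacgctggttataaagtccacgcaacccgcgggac
H2-Aa: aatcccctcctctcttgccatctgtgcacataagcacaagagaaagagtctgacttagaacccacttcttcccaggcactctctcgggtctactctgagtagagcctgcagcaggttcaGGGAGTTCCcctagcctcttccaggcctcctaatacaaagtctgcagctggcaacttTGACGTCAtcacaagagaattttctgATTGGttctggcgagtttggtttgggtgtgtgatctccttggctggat
Psmb9 to Tap1: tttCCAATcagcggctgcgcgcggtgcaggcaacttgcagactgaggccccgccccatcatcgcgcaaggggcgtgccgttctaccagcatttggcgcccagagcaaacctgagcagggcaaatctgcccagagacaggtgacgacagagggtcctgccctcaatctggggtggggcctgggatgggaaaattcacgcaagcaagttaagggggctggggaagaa

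The heavy chain promoters of H2-K1 and H2-D1 both hold GGGNNTTCC, at 111 and 171 bases before the start, and both hold TTTCACTTC, at 90 and 150 bases. Over one promoter for each of 27025 genes in the same table, 4.88% hold the first and 0.429% the second. GGGNNTTCC also lies in the H2-Aa promoter, at 131 bases, beside TGACGTCA at 74 bases, which 1.62% of promoters hold. The B2m promoter holds GAAANNGAA at 139 bases before the start, as 7.16% of promoters do. CCAAT lies in each of the 8 promoters searched except that of Psmb8, against 34.5% of promoters. The matches of Psmb9 and Tap1 are the same bases of their shared stretch. The promoters of Psmb8 and H2-Eb1 were searched but are not printed. Among the 8, TTCNNNGAA matched in Psmb8, against 7.18% of promoters. A match is a string of letters and shows no binding.

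One array stands apart from the rest and has to be read by itself. The Nxnl2 probe sets read 3.78 and 4.25 in knockout replicate 1, 3.73 and 4.11 in replicate 2, but 9.21 and 6.83 in the third array with that label, against 11.38 to 11.45 and 8.36 to 8.81 in wild type. It is therefore written as the array labelled knockout replicate 3, and results are given with and without it. Its correlation with the other arrays was 0.848 to 0.853 over probe sets, against 0.994 to 0.996 among the other 5. The mean level of 9 rod markers was 3.98 there, against 12.99 to 13.18 in the other 5 arrays, and that of 10 markers of olfactory and nasal epithelium was 12.05, against 4.78 to 4.95. The other 5 arrays thus carry the rod markers of their labelled tissue and in this one they are near background. Among those 5, lens markers were high in wild-type replicate 2, with a median 1.83 above the wild-type mean, and muscle markers in knockout replicate 2, with a median 1.78 above it over 9 genes each. Pigment epithelium markers were lowest in knockout replicate 1, with summed log2 levels of 63.7 and 69.2 in knockout replicates 1 and 2, against 67.5 to 74.6 in wild type. Rpe65, the visual cycle isomerase of that epithelium, read 9.54 and 10.02 in these knockout arrays, against 9.90 to 10.82 in wild type, so its RNA was present in the dissected samples. By its median the olfactory and nasal list lay 0.17 (knockout replicate 1) and 0.04 (replicate 2) above the mean of wild type. The part of these markers in the values of the members was not tested. As a scale for background, the brightest of 27 Bacillus control probe sets, which match no mouse transcript, read 4.13 to 4.60 in the 6 arrays.

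Of the 31 probe sets, 19 lay above that control in all 6 arrays, 7 in none, and 5 in some. The 7 were 3 of the 4 Tap1 probe sets, 2 of the 9 for H2-D1, 1 of the 2 for Psmb8 and 1 of the 4 for H2-Aa. Of the 31, 17 are of the kind (_x_at) whose probes can also bind other transcripts, among them all 4 for H2-K1 and 7 of the 9 for H2-D1. H2-K1, H2-D1 and further H2 genes are near-identical copies in places, so their signals may be shared. Values are log2 and are compared only within a probe set.

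**Figure D1:**
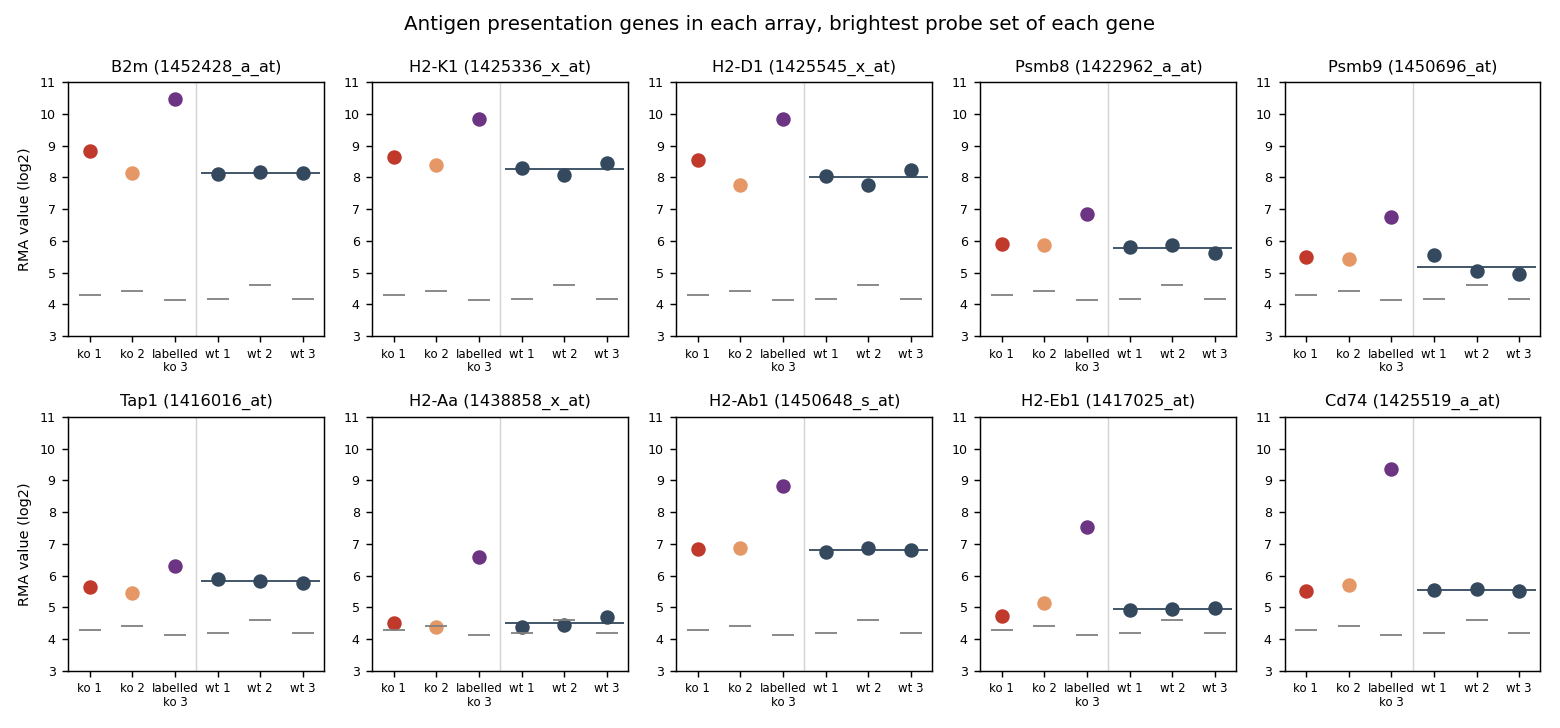
Each panel plots the deposited log2 value of a gene's brightest probe set in each of the 6 arrays (ko, knockout; wt, wild type), with the wild-type mean as a line and the brightest Bacillus control of each array as a grey dash. B2m read 8.82 and 8.13 in knockout replicates 1 and 2, against 8.10 to 8.16 in wild type, and in all 10 panels the array labelled knockout replicate 3 is the highest.

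The light chain read high in 1 of the 2 knockout arrays that lack Nxnl2. B2m (1452428_a_at) read 8.82 and 8.13 in knockout replicates 1 and 2, against 8.10, 8.16 and 8.13 in wild type. Its second probe set (1449289_a_at) read 8.61 and 7.87 in the same knockout arrays, against 7.60, 7.94 and 7.78 in wild type. By both probe sets knockout replicate 1 stood above every wild-type array, by 0.69 and 0.84 over the wild-type mean, while knockout replicate 2 lay within the wild-type range. In the fit of these 5 arrays the log2 differences were 0.35 (SE 0.18, 95% interval -0.07 to 0.76) and 0.47 (SE 0.21, 95% interval -0.01 to 0.94), with a limma adjusted p = 0.99998 for both. Without knockout replicate 1 the difference of the brighter probe set was 0.0037, and without knockout replicate 2 it was 0.69 (limma adjusted p = 0.672).

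Knockout replicate 1 was also the highest of the 5 arrays in most probe sets of the heavy chains, while the order of the other 4 differed from that of B2m. H2-K1 (1425336_x_at) read 8.63 and 8.41 in knockout replicates 1 and 2, against 8.29, 8.08 and 8.46 in wild type. H2-D1 (1425545_x_at) read 8.55 and 7.76 in knockout replicates 1 and 2, against 8.05, 7.77 and 8.22 in wild type. Knockout replicate 1 is the highest of the 5 in both, and knockout replicate 2 overlaps wild type for H2-K1 and lies level with the lowest wild-type array for H2-D1. Their log2 differences were 0.24 (SE 0.14) and 0.14 (SE 0.23), both with a limma adjusted p = 0.99998. Without knockout replicate 1 the value for H2-D1 turned to -0.25.

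Over the 15 probe sets of B2m, H2-K1 and H2-D1, knockout replicate 1 lay above all 3 wild-type arrays in 13, where 23.6% of all probe sets did so. The exceptions were 1450534_x_at of H2-K1 and 1450170_x_at of H2-D1, which read 4.09 and 3.12 there, below the brightest control of that array (4.29). Among the 13, 1451934_at of H2-D1 read 3.31 there and was also below the brightest control in every array. In knockout replicate 2 the count was 2 of 15, where 27.6% of all probe sets did so. Both knockout arrays lay above wild type in 2 of 15, with the dim 1451934_at among them, against 8.4% of all probe sets. Of the 11 probe sets above the brightest control in all 6 arrays, knockout replicate 1 lay above wild type in 11, replicate 2 in 1 and both in 1. Over the 15 the median distance from the wild-type mean was 0.44 for knockout replicate 1 and 0.06 for replicate 2. Among wild-type arrays replicate 3 was the highest in 12 of the 15, including all 9 probe sets of H2-D1, which may share signal. The share of all probe sets with that order was not counted, so whether 12 of 15 is unusual cannot be told. By a different measure, the highest of the 5 arrays, wild-type replicate 3 had 22.5% of all probe sets. Wild-type replicate 1 had 16.1% and replicate 2 had 18.2%. The 1 bright H2-D1 probe set that is not of the _x_at kind, 1426324_at, read 6.70 and 6.28 in knockout replicates 1 and 2, against 6.25, 6.43 and 6.44 in wild type. It too has knockout replicate 1 at the top.

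Of the genes that cut and carry peptides, Psmb8 and Psmb9 had differences above 0 and Tap1 one below 0 by their brightest probe sets. Psmb8 (1422962_a_at) read 5.89 and 5.86 in knockout replicates 1 and 2, against 5.82, 5.86 and 5.62 in wild type, a log2 difference of 0.11 (SE 0.11), with knockout replicate 1 the highest of the 5 by a narrow margin. Psmb9 (1450696_at) read 5.49 and 5.44 in the knockout arrays, against 5.54, 5.04 and 4.95 in wild type, a log2 difference of 0.29 (SE 0.17). For Psmb9 both knockout arrays stood below wild-type replicate 1 and above the other two, so the groups overlap. Tap1 (1416016_at) read 5.64 and 5.44 in knockout replicates 1 and 2, against 5.90, 5.82 and 5.78 in wild type. It is the 1 member probe set where both knockout arrays lay below every wild-type array, as 7.86% of all probe sets did. Its log2 difference was -0.29 (SE 0.11, 95% interval -0.54 to -0.04, unadjusted p = 0.0266, limma adjusted p = 0.99998). The other 3 Tap1 probe sets, at control level in every array, gave 0.05 to 0.14. Tap1 and Psmb9, which share the stretch of 225 bases printed above, thus had differences of opposite sign, and neither passed the test.

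Of the class II genes, H2-Ab1, H2-Eb1 and Cd74 read above the brightest control in all 6 arrays and H2-Aa did not, and no probe set had an unadjusted p under 0.05 in the 5 arrays. H2-Ab1 (1450648_s_at) read 6.83 and 6.87 in knockout replicates 1 and 2, against 6.75, 6.88 and 6.81 in wild type. Cd74 (1425519_a_at) read 5.52 and 5.69 in the knockout arrays, against 5.55, 5.57 and 5.51 in wild type. H2-Eb1 (1417025_at) read 4.71 and 5.12 in the knockout arrays, against 4.91, 4.96 and 4.99 in wild type. For Cd74 and H2-Eb1 knockout replicate 2 was above all wild-type arrays, while knockout replicate 1 lay within the wild-type range for Cd74 and below it for H2-Eb1. H2-Aa (1438858_x_at) read 4.51 and 4.37 in the knockout arrays, against 4.37, 4.45 and 4.70 in wild type, which is close to the brightest controls. Its other 3 probe sets lay below the brightest control in all 5 arrays. The log2 differences of the 9 class II probe sets ran from -0.06 to 0.18, with a median of 0.04. Those of the 22 class I probe sets ran from -0.29 to 0.47, with a median of 0.15.

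**Figure D2:**
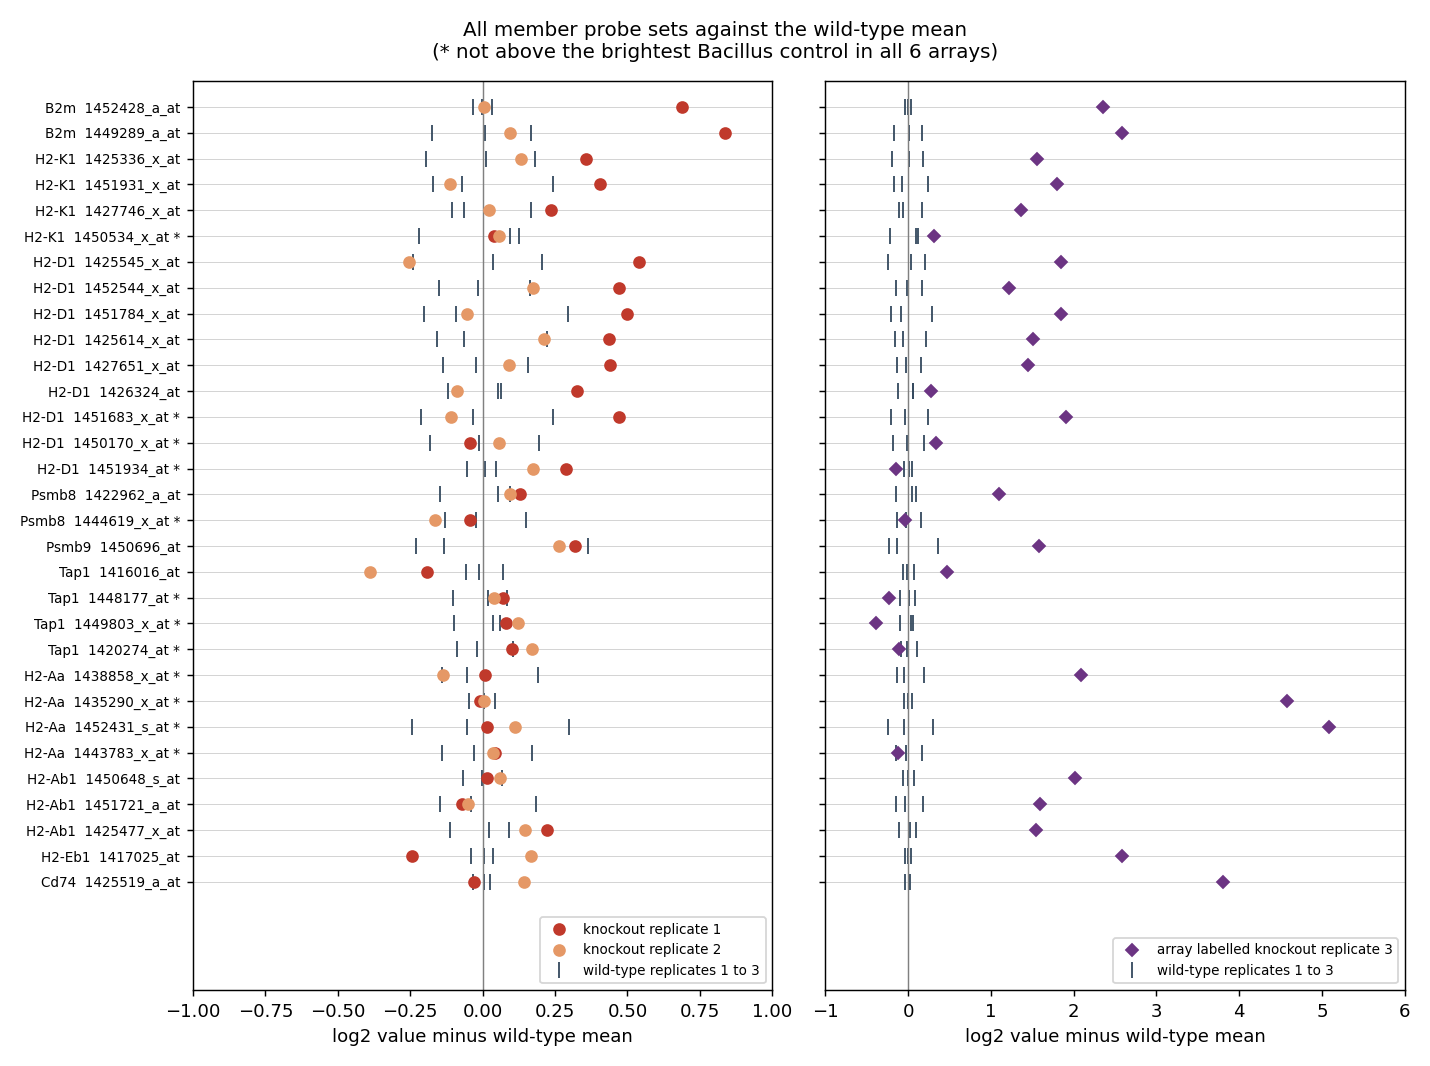
The plot gives the log2 value minus the wild-type mean for each of the 31 probe sets, with knockout replicates 1 and 2 on the left, the array labelled knockout replicate 3 on the right and the 3 wild-type arrays as ticks in both. Knockout replicate 1 lies right of every wild-type tick in 15 of the 22 class I probe sets and in 1 of the 9 class II probe sets.

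By limma, 0 of the 31 member probe sets passed an adjusted p of 0.05 in the 5 arrays, where 0.0111% of all probe sets passed, 0.00222% as higher and 0.00888% as lower in knockout. At an unadjusted p under 0.05 stood 4 of the 31, against 3.05% of all probe sets. These were Tap1 (1416016_at) and 3 of H2-D1, with differences of 0.32, 0.32 and, for a probe set at control level, 0.23. The median log2 difference over the 31 was 0.12, against 0.0037 over all probe sets, and 25 of the 31 were above 0, against 51.4% of all probe sets. The 25 include all 15 probe sets of B2m, H2-K1 and H2-D1. By the brightest probe set of each gene, 7 of 10 were above 0 and the median was 0.08, against 0.0048 over all genes. Knockout replicate 1 lay above all wild-type arrays in 4 of these 10, where 22.3% of all genes did. The widest 95% interval among the brightest probe sets was that of H2-D1, from -0.38 to 0.67, and those of the class II genes stayed between -0.35 and 0.29.

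**Figure D3:**
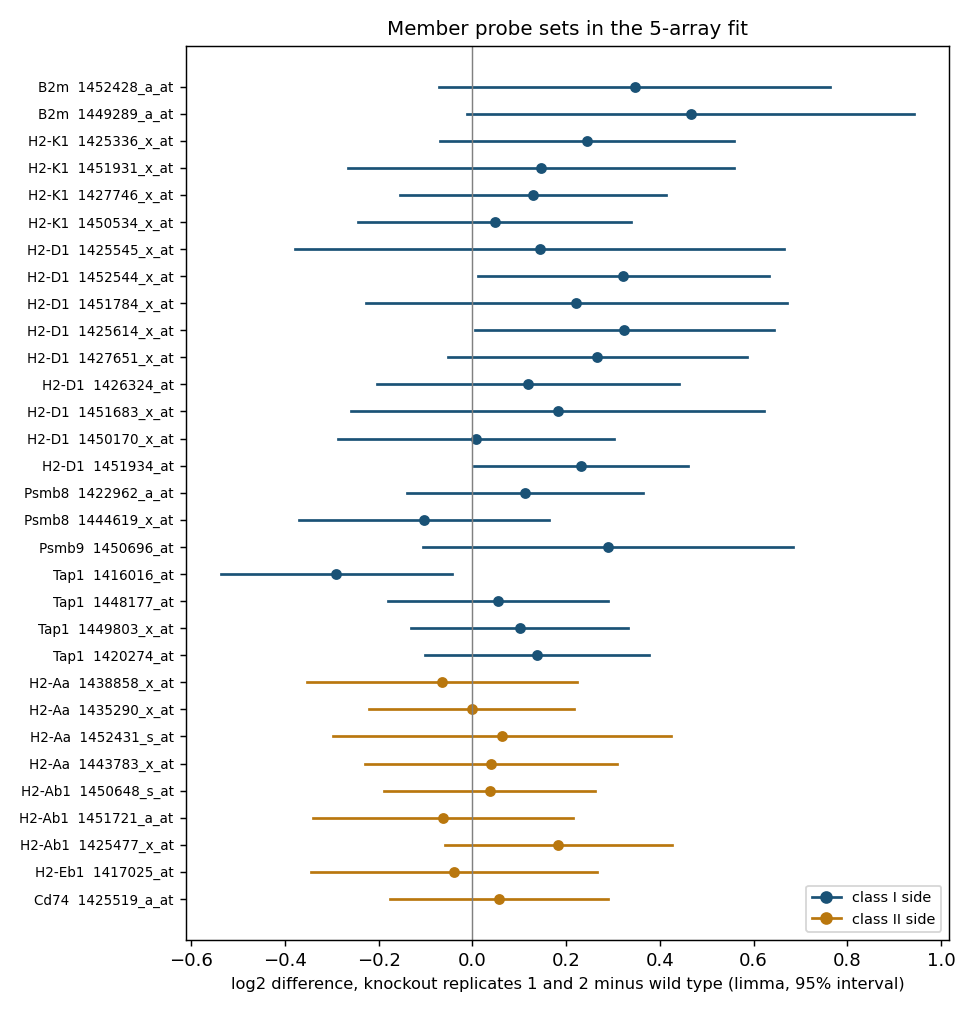
Points give the log2 difference of knockout replicates 1 and 2 minus the 3 wild-type arrays for each member probe set, and bars the 95% interval from limma. The class II intervals all cross 0, and those that do not are 3 of H2-D1 above 0 and Tap1 (1416016_at) below it, none with an adjusted p under 0.05.

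With all 6 arrays, as the design states, again 0 of 31 passed by limma (smallest adjusted p = 0.798), where 0.0% of all probe sets passed, and 0 of 31 had an unadjusted p under 0.05, against 1.0% of all probe sets. The median log2 difference over the members was 0.65, against -0.02 over all probe sets, and 26 of 31 were above 0, against 46.5%. These means rest on the array labelled knockout replicate 3, since the median without it was 0.12. Cd74 had a difference of 1.31 (SE 1.06) with that array and 0.06 (SE 0.10) without it. For B2m the values were 1.01 (SE 0.59) and 0.35 (SE 0.18).

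Of the other genes of the pathway, 0 passed in either direction by limma in either fit. Peptide supply for class I had 11 measured genes, such as Tap2, the second transporter chain, and Tapbp, which holds class I on the transporter. In the 5 arrays 7 of the 11 were above 0, the median was 0.03 and none had an unadjusted p under 0.05. For this list and the next ones, 51.4% of all probe sets were above 0 and 3.05% had an unadjusted p under 0.05. The median over all genes was 0.0048. Tapbp stood at 0.16 (SE 0.10) and Tap2 at -0.07 (SE 0.10). Of 10 further class I and class I-like genes, 5 were above 0 and the median was -0.0015, with H2-M3 at 0.22 (SE 0.11). Of 17 class II pathway genes, 8 were above 0 and the median was -0.0001, and Cd86, a ligand of co-stimulatory receptors, read below the brightest control in all 5 arrays. Of 14 subunits of the constitutive proteasome, 12 were above 0 and the median was 0.05.

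Interferon signalling and response genes, 35 measured, had a median of 0.06, against 0.0048 over all genes. Of the 35, 24 were above 0, against 51.4% of all probe sets. An unadjusted p under 0.05 was found for 3, against 3.05% of all probe sets, none passing by limma (adjusted p = 0.99998). The 3 were the GTPase genes Gbp6 at 0.37 (SE 0.14), Igtp at 0.26 (SE 0.10) and Gbp2 at 0.56 (SE 0.23). Gbp2 read 4.42 and 3.54 in knockout replicates 1 and 2, against 3.25, 3.58 and 3.43 in wild type. Of these 5 values, only that of knockout replicate 1 stood above its array's brightest control (4.29). The interferon gamma gene Ifng itself was at control level in every array, as were Socs1, Mx1 and Cxcl9.

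Markers of immune cells differed between the 2 knockout arrays as well. Of 11 microglia markers, 7 lay above all wild-type arrays in knockout replicate 1 and 1 did so in knockout replicate 2, where 22.3% and 31.3% of all genes did. The median distance from the wild-type mean was 0.22 for knockout replicate 1 and 0.0034 for replicate 2, and the summed log2 levels were 59.1 and 57.4 in these arrays, against 57.2 to 58.0 in wild type. Csf1r, the growth factor receptor of microglia and macrophages, read 9.03 and 8.64 in knockout replicates 1 and 2, against 8.52, 8.65 and 8.49 in wild type. The class II pathway protease gene Ctss, also made by microglia, read 9.19 and 8.35 in the knockout arrays, against 8.50, 8.59 and 8.52 in wild type. Of the 7, Aif1 and Gpr34 read below the brightest control there, and Gpr34 did so in every array. Summed macrophage and monocyte markers (9 genes) were 41.8 and 42.2 in the knockout arrays, against 41.0 to 42.3 in wild type, and summed endothelial markers (9 genes) were 51.5 and 52.3, against 50.2 to 50.9. Of the endothelial markers, 3 lay above all wild-type arrays in knockout replicate 1 and 6 in replicate 2. In the 5-array fit 8 of the 9 were above 0, against 51.4% of all probe sets. Of the 9, 2 had an unadjusted p under 0.05, against 3.05% of all probe sets, and 0 passed by limma. The part of these markers in the B2m, H2-K1 and H2-D1 values was not tested.

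B cell markers stood higher in knockout replicate 2. By their brightest probe sets Cd74 and H2-Eb1 were also above all wild-type arrays there, and H2-Ab1 and H2-Aa were not. Over class II the count was 3 of 9 probe sets, where 27.6% of all probe sets did so. Of 8 B cell markers, 7 lay above all wild-type arrays in knockout replicate 2, where 31.3% of all genes did. Of these, Ms4a1, Fcrla and Cd79b read below the brightest control there, and Cd79b passed narrowly (4.1599 against 4.1596 in wild-type replicate 1). In knockout replicate 1 the count was 1 of 8, where 22.3% of all genes did so. The summed log2 levels were 35.3 and 37.6 in knockout replicates 1 and 2, against 35.1 to 35.8 in wild type. Cd22, a lectin receptor of B cells, read 5.24 and 5.25 in the knockout arrays, against 4.96, 4.87 and 4.87 in wild type. The muscle markers named above were high in the same array. Summed dendritic cell markers (8 genes) were 35.0 and 36.5 in the knockout arrays, against 35.2 to 36.1 in wild type, and Xcr1, Cd209a and Ccr7 were at control level in all 6 arrays. Summed T and NK cell markers (7 genes) were 32.1 and 32.7, against 32.5 to 32.9 in wild type, with Cd3g and Cd2 at control level. The part of these cells in the class II values was not tested.

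**Figure D4:**
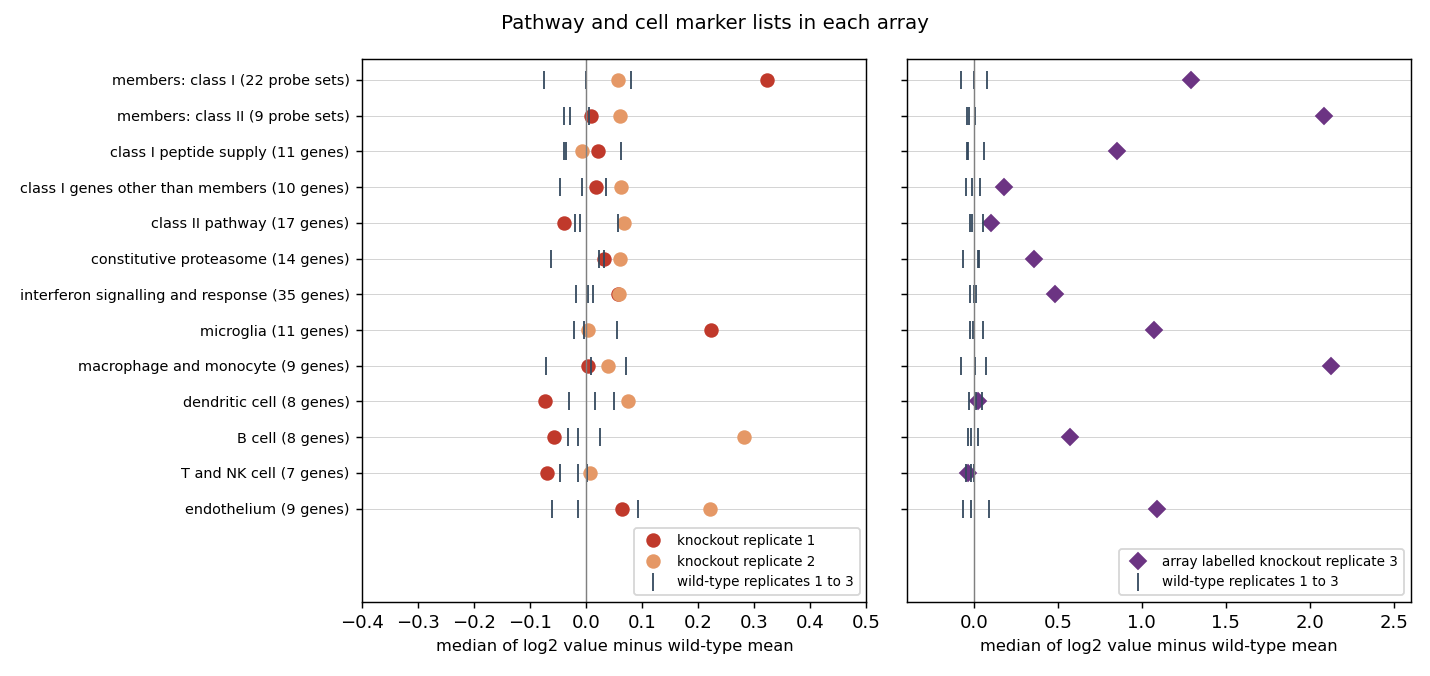
Each row gives, for a gene list, the median over its genes of the log2 value minus the wild-type mean, for knockout replicates 1 and 2 on the left, the array labelled knockout replicate 3 on the right and the 3 wild-type arrays as ticks. In the member rows the median is over probe sets instead, 22 for class I and 9 for class II. The class I members (0.32) and the microglia markers (0.22) stand right of the wild-type ticks in knockout replicate 1, and B cell (0.28) and endothelial (0.22) markers do so in knockout replicate 2, among other lists with smaller distances.

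Most members were far above every other array in the array labelled knockout replicate 3, class II more than class I. With 1 array there is no test. Of the 31 probe sets, 21 lay more than 1 log2 unit above the wild-type mean, where 12.0% of all probe sets did, and 0 lay as far below, where 11.1% did. The counts were 8 of 9 for class II and 13 of 22 for class I, of which 1 and 6 probe sets were at control level in every array. Among probe sets above the brightest control in all 6 arrays they were 5 of 5 for class II and 12 of 14 for class I. The median distances of these from the wild-type mean were 2.02 and 1.53. Cd74 read 9.35 there, against 5.54 ± 0.03 (SD, n = 3) in wild type, 14.0 times the wild-type level. H2-Ab1 read 8.84, against 6.81 ± 0.07 (SD, n = 3), and H2-Eb1 read 7.54, against 4.95 ± 0.04 (SD, n = 3).

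H2-Aa depended on the probe set. Its probe sets 1452431_s_at and 1435290_x_at read 8.57 and 8.33 in the array labelled knockout replicate 3, against 3.24 to 3.78 and 3.71 to 3.80 in wild type. Since the wild-type values lie at control level, the ratio was taken against the higher of each array's own value and its brightest control, and they were at least 19.0-fold and at least 16.2-fold higher. The probe set 1438858_x_at read 6.59, against 4.37 to 4.70 in wild type, and was at least 4.11-fold higher. The last, 1443783_x_at, read 2.53, against 2.51 to 2.82 in wild type, and stayed at control level.

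B2m read 10.48 there, against 8.13 ± 0.03 (SD, n = 3) in wild type, 5.11 times the wild-type level. H2-K1 read 9.83, against 8.27 ± 0.19 (SD, n = 3), and H2-D1 read 9.86, against 8.01 ± 0.23 (SD, n = 3). All 3 chains were thus highest in this array by their brightest probe sets. The H2-D1 probe set 1426324_at, however, read 6.65, below the 6.70 of knockout replicate 1, while 6 of the 9 H2-D1 probe sets lay more than 1 log2 unit above the wild-type mean. Psmb9 read 6.76, against 5.18 ± 0.32 (SD, n = 3), and Psmb8 read 6.86, against 5.76 ± 0.13 (SD, n = 3). Tap1 was nearest to wild type, at 6.30 against 5.83 ± 0.07 (SD, n = 3).

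The same array differed in the rest of the pathway and in cell markers. More than 1 log2 unit above the wild-type mean lay 4 of 11 peptide supply genes, 2 of 17 class II pathway genes, 12 of 35 interferon genes and 0 of 14 constitutive proteasome genes, where 15.8% of all genes did. By the same measure the counts were 6 of 9 for macrophage and monocyte markers, 6 of 11 for microglia and 5 of 9 for endothelium. They were 1 of 8 for B cells, 0 of 8 for dendritic cells and 0 of 7 for T and NK cells. Of the endothelial markers, 1 of 9 lay more than 1 log2 unit below the wild-type mean. The summed log2 level of the macrophage and monocyte list was 55.8 there, against 41.0 to 42.3 in wild type, with Cd163 at control level. Those of microglia (67.5 against 57.2 to 58.0), endothelium (58.3 against 50.2 to 50.9) and B cells (40.0 against 35.1 to 35.8) were also above wild type. That of dendritic cells was 36.7 against 35.2 to 36.1, and that of T and NK cells was 32.2 against 32.5 to 32.9. Lyve1 and P2ry12, both in these lists, read 4.11 and 3.65 there, below the brightest control (4.13), against 7.43 to 7.66 and 5.54 to 5.80 in wild type, a pair chosen after their values were seen. Which cells carry the members in this array was not tested.

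By the mean absolute distance over the 6 arrays, each taken from its wild-type mean, the genes nearest to the class II average were Cib1 (0.02), Clca3a1 (0.03) and Sigirr (0.04). Those nearest to the class I average were Cryzl2 (0.03), Fbxo32 (0.04) and Zbtb42 (0.05). All 6 were high in the array labelled knockout replicate 3, by 2.58 to 2.63 for the class II neighbours and by 1.40 to 1.51 for the class I neighbours. These heights follow from the choice of nearest genes, since the 2 averages themselves stood 2.62 (class II) and 1.48 (class I) above the wild-type mean there.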

How the data were processed

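Biotin-labelled cRNA from retinal total RNA was hybridised to 1-colour Affymetrix arrays, per the labels' protocols. The deposited log2 values were made by the authors with RMA, per the submitters' processing notes, and the sources used here give no software or version. RMA aligns the distributions of the arrays, which hides any shift common to all genes, and makes no detection calls. Gene names come from GEO's platform annotation, in which 34945 of 45037 probe sets name 1 gene (18193 genes), and 64 control probe sets were left out. Some genes were not analysed here because no probe set names them alone.

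Groups were compared with limma 3.58.1 (lmFit and eBayes) in R 4.3.3 on all probe sets, two-sided, with Benjamini-Hochberg adjustment at 0.05, with all 6 arrays and with 5. The procedure was tested on simulated data, and figures were drawn with matplotlib 3.10.9. For other pathway genes and markers the probe set of highest mean stood for a gene, and the rule named up to 4 genes a list with the smallest p. The number of arrays limits the precision. The members, lists, separate display of single arrays and promoter letters were chosen with earlier results of these data known. Deviations of same-numbered arrays from their group means had correlations of -0.061, -0.031 and -0.104 over the 6 arrays. Over the 5 arrays the correlations were -0.066 for replicate 1 and 0.152 for replicate 2. Different-numbered arrays reached 0.15 over the 6 arrays and 0.188 over the 5, so numbers were not taken as pairs.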

Additional observations from a re-analysis of the deposited data

How the results depend on the processing

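The settings tried were quality weights for arrays, a robust fit with a variance trend, renewed quantile normalization, median centring, a filter on dim probe sets (under the 40th percentile), 1 probe set or the mean of probe sets per gene, the replicate number as a block, and each array left out. None of them called a member probe set by limma (0 in each). With 6 arrays the count of called probe sets over the whole array moved to 5 with array quality weights, and leaving out each array gave 0 to 5, the 5 without the array labelled knockout replicate 3. With 5 arrays it was 2 with 1 probe set per gene, 1 with the mean per gene, and 4 to 11 with each array left out, 11 without knockout replicate 1 and 9 without replicate 2. With the replicate block the counts were 0 in 6 arrays and 6 in 5 arrays, and the block changed no call of a member. The remaining alternatives kept the count within 1.5 times.

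Some directions turned. In the 6-array fit H2-Aa was -0.021 with array quality weights, and leaving out each array gave -0.064 to 1.05 for H2-Aa, -0.038 to 1.37 for H2-Eb1 and -0.29 to 0.14 for Tap1. In the 5-array fit the mean of probe sets gave 0.0089 for H2-Aa and 0.00065 for Tap1, and the replicate block, in which wild-type replicate 3 has no partner and adds nothing, gave 0.032 for H2-Aa. With each of the 5 arrays left out in turn the values were -0.25 to 0.54 for H2-D1, -0.24 to 0.17 for H2-Eb1, -0.14 to 0.032 for H2-Aa and -0.029 to 0.14 for Cd74. Those below 0 came without knockout replicate 1 for H2-D1 and without replicate 2 for Cd74, and those above 0 without replicate 1 for H2-Eb1 and without knockout replicate 2 (0.0083) or wild-type replicate 3 for H2-Aa. Where 1 knockout array is left, it takes its spread from the wild-type arrays. The cause was not tested. With dim probe sets removed H2-Aa has no value in either fit and H2-Eb1 none in 5 arrays. In the array labelled knockout replicate 3 the count of probe sets more than 1 log2 unit up was 21 also against the other 5 arrays, with quantile normalization and with median centring, settings chosen after seeing the data.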
